A study of Schizophyllum commune with 14 samples.

Results

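The genes described here are 16 of the 14681 genes in an expression table of fruiting in the split gill mushroom Schizophyllum commune. They were chosen by their measured levels: lower in vegetative mycelium and in stage 1 primordium than in the 3 stages that follow, and similar among those. The rule set no upper limit on the earlier levels. The authors' table gives log2 RPKM, that is reads scaled to transcript length and library size, here with a further constant for each library. Membership needed stage means of at least 2 on that scale (4 RPKM) for stage 2 primordia, for young and for mature fruiting bodies. Each of these had to be at least 2 (4-fold) above the means of both mycelium and stage 1 primordium, and they had to lie less than 1 (2-fold) apart. Comparisons of the 3 later stages with the 2 earlier ones, and among the later stages, therefore restate the choice and are given as descriptions without a test. The 3 later stages hold 8 libraries and the 2 earlier ones 6.

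Poly(A) RNA was sequenced from a dikaryon made by mating the H4-8a and H4-8b monokaryons, grown on MM medium from a 5 mm plug. The plates spent 5 days at 30 °C without light and 10 days at 25 °C with 12 hours of light a day. Vegetative mycelium (VM), stage 1 primordium (P1, at most 2 mm), young fruiting body (YFB, 5 to 7 mm) and fully expanded fruiting body (FB) had 3 biological replicates each. Stage 2 primordium (P2, 3 to 4 mm, with a pit at the apex) had 2, numbered 2 and 3. Samples came from a single strain background and no sort of cells is given, so a change in the mix of cell types and a change of RNA per cell cannot be told apart. Reads with a single placement numbered 13708387 to 24052213 per library, and stage 2 primordium replicate 2 stood apart in its scaling factor, 0.548 against 0.86 to 1.214 elsewhere. The 3 mycelium libraries came from 1 flow cell and the other 11 from another, so flow cell and stage cannot be told apart in any comparison with mycelium.

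In mushrooms, hyphae of the dikaryon first knot into small primordia, which then form tissues and enlarge. In Schizophyllum commune the stage 2 primordium opens into a cup whose inner face carries the pseudolamellae, the split gills, on which basidia later form spores. All 16 transcript IDs matched a locus tag of the RefSeq Schco3 annotation, but none has a symbol there and the annotation used here holds no product names, so no function is given to any of them. None of the hydrophobins, regulators of fruiting and mating type genes that carry a symbol met the rule. Among all genes with a symbol, of these classes or not, CFS2 had the largest gap. It stood 2.30 above the earlier stages on the log2 scale but with its later means 1.48 apart.

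Over these libraries the term "switched on at stage 2" fits the 16 genes unevenly. In 9 of them all 8 later libraries lay above all 6 earlier ones, while in 7 the ranges overlapped. Over all 14681 genes the later libraries lay above the earlier ones in 4.24%, but the rule itself chose such genes. Of the 16, 6 were called higher in stage 1 primordium than in mycelium by edgeR, against 22.5% of all genes tested, and 2 of these calls were lost when single libraries were left out. Over the 3 later stages the mean level was lowest in SCHCODRAFT_02585479 and highest in SCHCODRAFT_02508594.

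**Figure D1:**
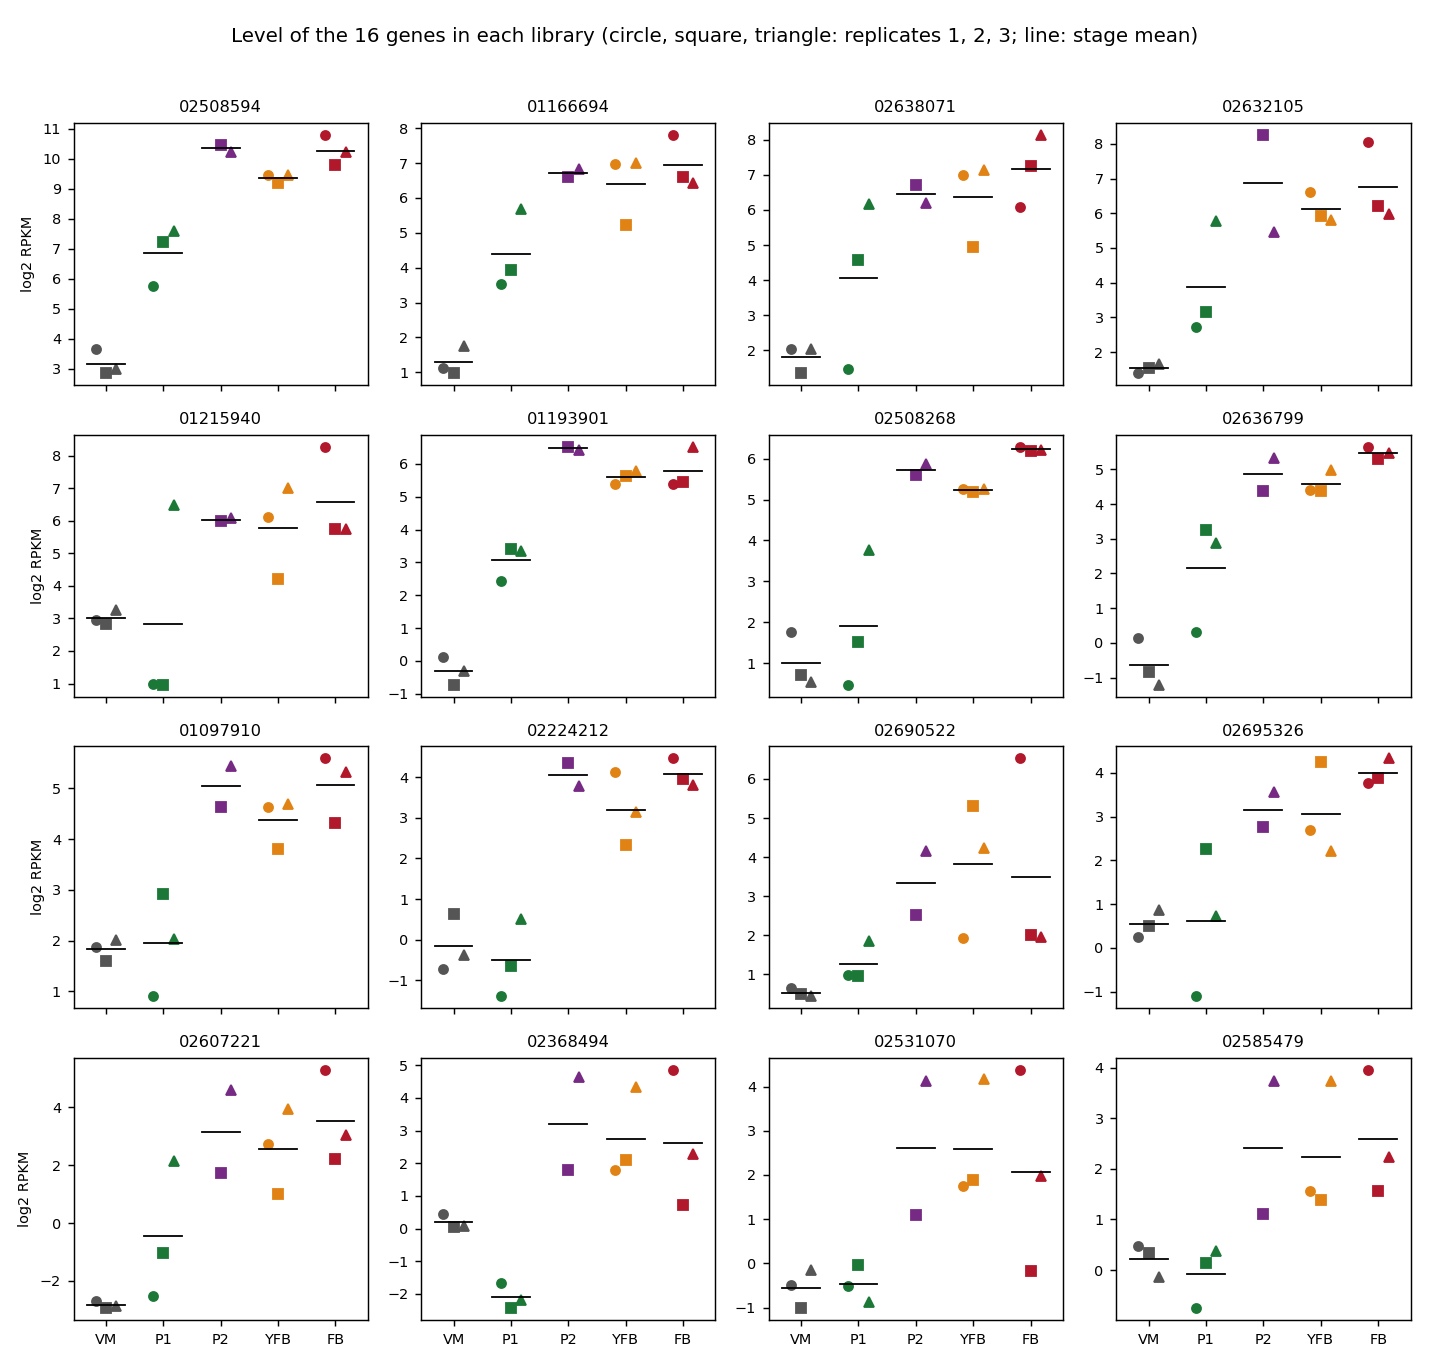
Level of each of the 16 genes in every library, as log2 RPKM from the authors' table (vertical axis) by stage (horizontal axis), named by the number of the locus tag. Points are libraries, with circle, square and triangle for replicates 1, 2 and 3, and lines are stage means; SCHCODRAFT_02508268 sits tightly together within the later stages, while SCHCODRAFT_02531070 is split in each of them.

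A first set of 6 genes had no overlap and late levels that differed at most 4.37-fold between libraries. By far the most abundant was SCHCODRAFT_02508594. Its RPKM was 12.7, 7.19 and 8.0 in mycelium replicates 1 to 3 and 54.6, 150.0 and 192.0 in stage 1 primordium. It stood at 1397 and 1204 in stage 2 primordium replicates 2 and 3, 705.0, 578.0 and 706.0 in young fruiting body and 1754, 890.0 and 1185 in fruiting body. The gene thus climbed in 2 steps, with stage 1 primordium between the extremes in every library. Among 14681 genes it ranked 7940 by mean level in mycelium, 1169 in stage 1 primordium and 49 in fruiting body.

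SCHCODRAFT_01193901 followed the same order at a lower level. Its RPKM was 1.1, 0.601 and 0.805 in mycelium and 5.43, 10.6 and 10.2 in stage 1 primordium. In the later stages, given here and for further genes in the order stage 2 primordium, young and mature fruiting body with replicates in order, it was 91.5 and 86.3, then 42.4, 49.8 and 54.8, then 41.8, 43.8 and 91.6. Its stage 2 primordia were above all young fruiting bodies, and fruiting body replicate 3 alone returned to the stage 2 level. SCHCODRAFT_02636799 was at 1.1, 0.56 and 0.431 RPKM in mycelium and at 1.25, 9.58 and 7.37 in stage 1 primordium. It reached 20.8 and 40.2, then 21.3, 20.7 and 31.6, then 50.2, 39.8 and 43.9 RPKM. Stage 1 primordium replicate 1 was close to the mycelium in this gene, while the other replicates were several times higher.

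SCHCODRAFT_02508268 had the narrowest range over single late libraries of the 16, 2.13-fold from lowest to highest, while its late stage means were the furthest apart, at 2.0-fold. It was at 3.38, 1.62 and 1.44 RPKM in mycelium and at 1.39, 2.86 and 13.5 in stage 1 primordium, whose replicate 3 stood out. Its later values were 48.4 and 58.2 in stage 2 primordium, 38.1, 36.6 and 38.1 in young and 78.1, 73.1 and 74.0 in mature fruiting bodies. The SD of its replicates was 0.03 and 0.05 on the log2 scale in young fruiting body and fruiting body, so that these stages did not overlap although they differ less than 2-fold. Its gap to the higher of the earlier means was 9.96-fold, second to the 10.3-fold of SCHCODRAFT_02224212.

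SCHCODRAFT_02224212 was near the detection limit early, at 0.602, 1.53 and 0.776 RPKM in mycelium and 0.379, 0.64 and 1.43 in stage 1 primordium, where it had 2, 4 and 8 reads. It was at 20.4 and 13.8 RPKM in stage 2 primordium, 17.4, 5.08 and 8.81 in young fruiting body and 22.2, 15.4 and 14.0 in fruiting body. No stage 1 library rose above the mycelium range in this gene. In SCHCODRAFT_01097910 the mycelium stood at 3.68, 3.0 and 4.03 RPKM and stage 1 primordium at 1.87, 7.56 and 4.1, on either side of it. Later libraries held 25.0 and 43.1, then 24.7, 14.0 and 25.8, then 48.0, 19.8 and 40.0 RPKM. In these 2 genes every library from stage 2 on exceeded every earlier one.

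In a second set of 4 abundant genes, stage 1 primordium replicate 3 already lay within the range of the later libraries. SCHCODRAFT_01215940 showed this most. Its RPKM was 7.7, 7.05 and 9.54 in mycelium, 2.0 and 1.95 in stage 1 primordium replicates 1 and 2, and 89.0 in replicate 3. It was then 63.8 and 67.3 in stage 2 primordium, 68.6, 18.7 and 129.0 in young and 308.0, 53.8 and 53.2 in mature fruiting bodies. Replicate 3 was thus above both stage 2 libraries, while the other stage 1 libraries were below all mycelium libraries.

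SCHCODRAFT_02638071 spread widely over the stage 1 libraries, at 2.75, 23.9 and 72.4 RPKM, against 4.08, 2.55 and 4.15 in mycelium. It held 106.0 and 74.1 RPKM in stage 2 primordium, 128.0, 31.0 and 142.0 in young fruiting body and 68.1, 153.0 and 281.0 in fruiting body. Stage 1 replicate 1 was within the mycelium range here and replicate 3 within the later range. SCHCODRAFT_02632105 was at 2.62, 2.91 and 3.18 RPKM in mycelium and at 6.54, 8.89 and 55.3 in stage 1 primordium. Its late values were 304.0 and 44.4, then 97.8, 60.2 and 56.4, then 266.0, 73.4 and 62.6. Stage 2 primordium replicate 2, the library with the low scaling factor, and fruiting body replicate 1 were well above the rest. SCHCODRAFT_01166694 was at 2.18, 1.96 and 3.36 RPKM in mycelium and 11.6, 15.4 and 51.1 in stage 1 primordium. Later it held 96.6 and 114.0, then 126.0, 37.1 and 128.0, then 223.0, 97.2 and 87.0 RPKM. Its only overlap was between stage 1 replicate 3 and young fruiting body replicate 2.

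The stage 1 primordium libraries were compared further because the rule averages over them. Replicate 3 was the highest of the 3 in 10 of the 16 genes, against 41.2% of the 9722 genes whose later stage means all reached 4 RPKM. The rule held the stage 1 mean of the 16 low and did not hold that of the 9722, so these shares are a description. The overlap between earlier and later libraries rested on replicate 3 alone in 5 of the 7 overlapping genes. On the log2 scale it exceeded the mean of replicates 1 and 2 by 5.49 in SCHCODRAFT_01215940, 3.93 in SCHCODRAFT_02607221, 3.16 in SCHCODRAFT_02638071 and 2.86 in SCHCODRAFT_02632105. It was not the highest in SCHCODRAFT_01193901, SCHCODRAFT_02636799, SCHCODRAFT_01097910, SCHCODRAFT_02695326, SCHCODRAFT_02368494 and SCHCODRAFT_02531070. The scaling factor of replicate 3 was 0.86, against 0.991 and 1.037 in replicates 1 and 2; its part in these values was not tested.

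**Figure D2:**
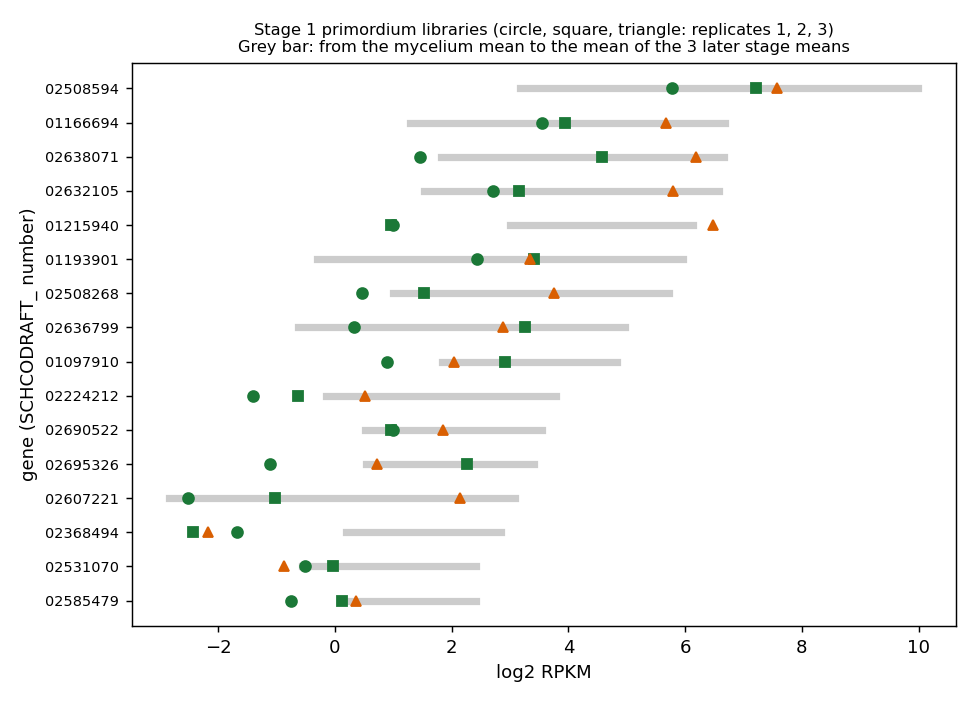
Position of the stage 1 primordium libraries (points; orange triangle for replicate 3) on the log2 RPKM axis, with a grey bar for each gene from the mycelium mean to the mean of the 3 later stage means. In SCHCODRAFT_01215940 the triangle is beyond the right end of the bar, at 89.0 RPKM, and in SCHCODRAFT_02368494 all 3 points are left of it.

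A further set of 4 genes, all of low level, was split within every later stage in the same way. SCHCODRAFT_02531070 was at 0.706, 0.498 and 0.898 RPKM in mycelium and at 0.698, 0.974 and 0.549 in stage 1 primordium. It was at 2.13 in stage 2 primordium replicate 2 and 17.3 in replicate 3. Young fruiting body held 3.34, 3.67 and 18.0 RPKM and fruiting body 20.9, 0.889 and 3.91. The gene was high in stage 2 primordium replicate 3, young fruiting body replicate 3 and fruiting body replicate 1, and fruiting body replicate 2 lay below mycelium replicate 3.

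SCHCODRAFT_02368494 had the same 3 high libraries. It was at 1.38, 1.04 and 1.05 RPKM in mycelium and 0.312, 0.186 and 0.221 in stage 1 primordium, below every mycelium library. Later it held 3.43 and 24.7, then 3.44, 4.25 and 20.1, then 29.0, 1.66 and 4.81 RPKM. SCHCODRAFT_02585479 went from 1.39, 1.26 and 0.917 RPKM in mycelium and 0.595, 1.09 and 1.29 in stage 1 primordium to 2.14 and 13.3, then 2.98, 2.61 and 13.3, then 15.6, 2.95 and 4.73 RPKM. The geometric mean RPKM of SCHCODRAFT_02531070 was 18.7 over the 3 high libraries and 2.46 over the other 5 late ones. It was 24.3 against 3.32 in SCHCODRAFT_02368494 and 14.0 against 2.97 in SCHCODRAFT_02585479.

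SCHCODRAFT_02607221, a transcript of 156 bases, joins this set with few reads. It had 0 reads in all 3 mycelium libraries, where the 0.13 to 0.154 RPKM of the table therefore count no reads, and 0, 1 and 11 reads in stage 1 primordium. Reads in later libraries were 4 and 60, then 17, 5 and 34, then 154, 12 and 32. With the mycelium set at the limit that a count of 0 allows, 3 reads over the group, stage 1 primordium was at least 5.05-fold higher, stage 2 primordium at least 59.3-fold, young fruiting body at least 26.5-fold and fruiting body at least 67.2-fold. Of the 12 stage 1 reads, 11 came from replicate 3, and without it both early stages were under that limit.

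The 3 high libraries were set against the whole table as a description. In 8 of the 16 genes they were each the highest of their stage, as in 723 of the 9722 genes with later means of at least 4 RPKM (7.4%). Their lead over every other library of the same stage was at least 2-fold in the 4 genes just described and in 14 of the 9722 genes, those 4 included. The rule used these same libraries, so the shares are no trait found apart from the choice. SCHCODRAFT_02368494, SCHCODRAFT_02531070 and SCHCODRAFT_02585479 were no members when any of the 3 libraries was left out. SCHCODRAFT_02607221 was none without stage 2 primordium replicate 3 or young fruiting body replicate 3. Without stage 2 primordium replicate 2 all 4 were lost too. Deviations from the stage means over the 8 later libraries correlated with r between 0.92 and 1.0 in the 6 pairs of the 4 genes, and with a median r of 0.27 (range -0.79 to 0.95) in the 114 other pairs of the 16. These correlations share their libraries and few independent points. The 4 genes were singled out, after their values were seen, by their lead in the same 3 libraries, which itself raises r among them. The 3 libraries had 17842961, 13708387 and 24052213 unique reads, the lowest and the highest of all 14 among them, and scaling factors of 0.899, 1.044 and 1.04.

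**Figure D3:**
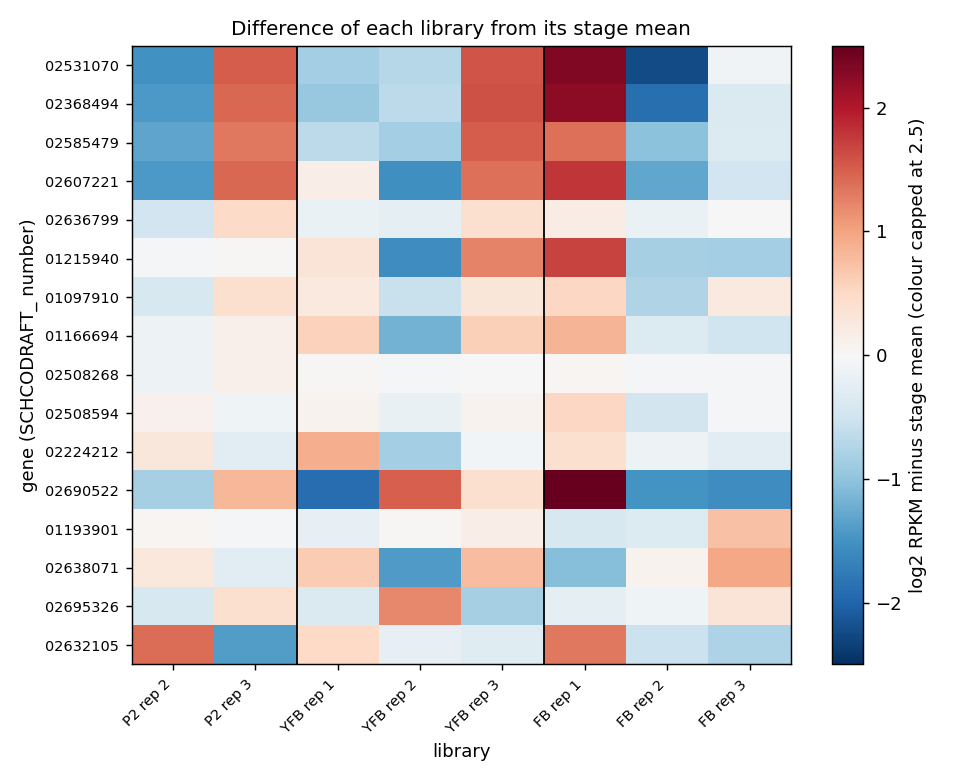
Difference of each of the 8 later libraries (columns, grouped by stage) from its stage mean, in log2 RPKM by colour, for the 16 genes (rows, ordered by the least lead of P2 replicate 3, YFB replicate 3 and FB replicate 1 over the rest of their stage). The top 4 rows are red in those 3 columns and blue or pale in the other 5, with leads of 2.29, 2.24, 1.72 and 1.2 at the least.

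The remaining genes varied in ways of their own. SCHCODRAFT_02690522 was at 1.56, 1.41 and 1.34 RPKM in mycelium and 1.99, 1.95 and 3.62 in stage 1 primordium. It went to 5.68 and 17.8, then 3.78, 39.7 and 18.8, then 92.4, 4.02 and 3.83 RPKM. Its highest late library exceeded the lowest 24.4-fold, the widest range of the 16, and 4 of the 8 late libraries were below 6 RPKM. SCHCODRAFT_02695326 was at 1.19, 1.41 and 1.82 RPKM in mycelium and 0.463, 4.78 and 1.64 in stage 1 primordium. Its later levels were 6.79 and 11.8, then 6.45, 19.1 and 4.65, then 13.7, 14.9 and 20.1 RPKM, with stage 1 replicate 2 just above young fruiting body replicate 3.

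The similar stage means thus covered unequal spreads between replicates. The median SD of log2 RPKM over the 16 genes was 0.36 for mycelium and 1.07 and 0.56 for stage 1 and stage 2 primordia. It was 1.05 for young and 0.88 for mature fruiting bodies. Over the 9722 genes with later means of at least 4 RPKM it was 0.11, 0.19, 0.37, 0.32 and 0.32 in the same order. Unlike those, the 16 were held at least 4-fold lower in mycelium and stage 1 primordium. The SDs of these earlier stages therefore compare unlike levels, and the part of low read counts was not tested. The SD in fruiting body ran from 0.05 in SCHCODRAFT_02508268 to 2.63 in SCHCODRAFT_02690522.

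Stage 1 primordium against vegetative mycelium is the contrast that the rule did not set directly. The rule held both levels below the later ones and so limited a rise and a fall alike. The genes tested as a whole were not held to it, so their values beside the 16 are a description. This contrast was tested by edgeR's quasi-likelihood fit of unique reads over all 14 libraries, two-sided, with Benjamini-Hochberg adjustment over 14302 genes. Each gene's spread came from all stages in that fit, so scatter between later libraries entered the SE and the p-value. Of the 16 genes 6 rose and 0 fell at an adjusted p below 0.05. Over all genes tested, 22.5% were called higher and 21.4% lower. The median log2 change of the 16 was 1.70, against 0.02 over all genes tested, and it was 0.64 against -0.01 without stage 1 primordium replicate 3. SCHCODRAFT_02607221 and SCHCODRAFT_02224212 passed the filter on low counts only through the later stages; with stage 1 primordium and mycelium fitted alone, the other 14 had a median of 1.68. With SCHCODRAFT_02607221 at its lower bound the median of the 16 stayed at 1.70. At an unadjusted p below 0.05 edgeR put 0 of them lower too, and DESeq2 called 0 lower. With stage 1 primordium and mycelium fitted alone, however, edgeR called 7 higher and 1 lower, SCHCODRAFT_02368494 (edgeR adjusted p = 0.000576).

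Among the 6 called genes the largest rise was that of SCHCODRAFT_02508594, from 13.4 ± 4.32 to 190 ± 101 CPM (CPM, computed here from unique reads and scaled library totals; SD, n = 3 each), a log2 change of 3.83 ± 0.46 (SE; edgeR adjusted p = 2.26e-05). SCHCODRAFT_01193901 rose from 1.43 ± 0.43 to 15.2 ± 5.01 CPM (3.41 ± 0.37, edgeR adjusted p = 1.1e-05). SCHCODRAFT_01166694 rose by 3.40 ± 0.68 (edgeR adjusted p = 0.00161) and SCHCODRAFT_02636799 by 3.20 ± 0.63 (edgeR adjusted p = 0.0013). These 4 genes, more than 8-fold up in stage 1 primordium, kept their call under each of 21 other settings. Without stage 1 primordium replicate 3 the log2 change of SCHCODRAFT_01166694 was 2.44.

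Calls for 2 more genes were lost when single libraries were left out. SCHCODRAFT_02638071 was at 2.08 ± 0.526 against 19.3 ± 20.9 CPM (n = 3 each; log2 change 3.21 ± 0.95, edgeR adjusted p = 0.0164), with stage 1 replicate 1 inside the mycelium range. Without stage 1 primordium replicate 3 its change was 1.90 and without mycelium replicate 2 it was 3.01, and neither was called (edgeR adjusted p = 0.0949 and 0.0633). SCHCODRAFT_02632105 was at 5.92 ± 0.571 against 48.2 ± 56.3 CPM (3.02 ± 0.92, edgeR adjusted p = 0.0183). It fell to 1.40 without stage 1 primordium replicate 3 (edgeR adjusted p = 0.151), and without mycelium replicate 1, 2 or 3 the change was 2.96, 3.02 and 3.09 (edgeR adjusted p = 0.0624, 0.0591 and 0.0532). All stage 1 libraries lay above all mycelium libraries in 6 of the 16 genes (37.5%), close to the 36.0% of all genes tested. These were the called genes other than SCHCODRAFT_02638071, together with SCHCODRAFT_02690522.

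The other 10 genes were not called. SCHCODRAFT_01215940, with 5.83 ± 0.935 against 22.3 ± 36.3 CPM, had a log2 change of 1.93 ± 1.26 (edgeR adjusted p = 0.232), and its sign turned to -2.06 without stage 1 primordium replicate 3. SCHCODRAFT_02508268, at 1.03 ± 0.524 against 2.88 ± 3.25 CPM, changed by 1.47 ± 0.63 (edgeR adjusted p = 0.0744). It was called without stage 1 primordium replicate 1 or 2 (edgeR adjusted p = 0.00886 and 0.0451) and by DESeq2 (adjusted p = 0.0313), and was at -0.01 without replicate 3. SCHCODRAFT_02368494 was at 1.09 ± 0.182 against 0.203 ± 0.0624 CPM with all stage 1 libraries below the mycelium (-2.38 ± 1.39, edgeR adjusted p = 0.184). The SD of its log2 RPKM was 0.23 in mycelium and 0.38 in stage 1 primordium, but 2.09 in fruiting body. Fitted on these 2 stages alone, mycelium and stage 1 primordium, it was called lower (edgeR adjusted p = 0.000576). SCHCODRAFT_02690522 was called higher in that fit (log2 change 0.78, edgeR adjusted p = 0.0379; 0.81 ± 1.14 and adjusted p = 0.591 over all stages), and SCHCODRAFT_02607221, whose fitted log2 change of 5.13 ± 3.05 against no mycelium reads depends on the prior count, by DESeq2 (adjusted p = 0.0293; edgeR adjusted p = 0.199). SCHCODRAFT_01097910, SCHCODRAFT_02224212, SCHCODRAFT_02695326, SCHCODRAFT_02531070 and SCHCODRAFT_02585479 had log2 changes of 0.34 ± 0.47, -0.34 ± 0.67, 0.65 ± 0.69, 0.09 ± 1.15 and -0.27 ± 0.89. With 2 to 13 reads in each of these libraries, SCHCODRAFT_02224212 had little depth for a call either way.

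**Figure D4:**
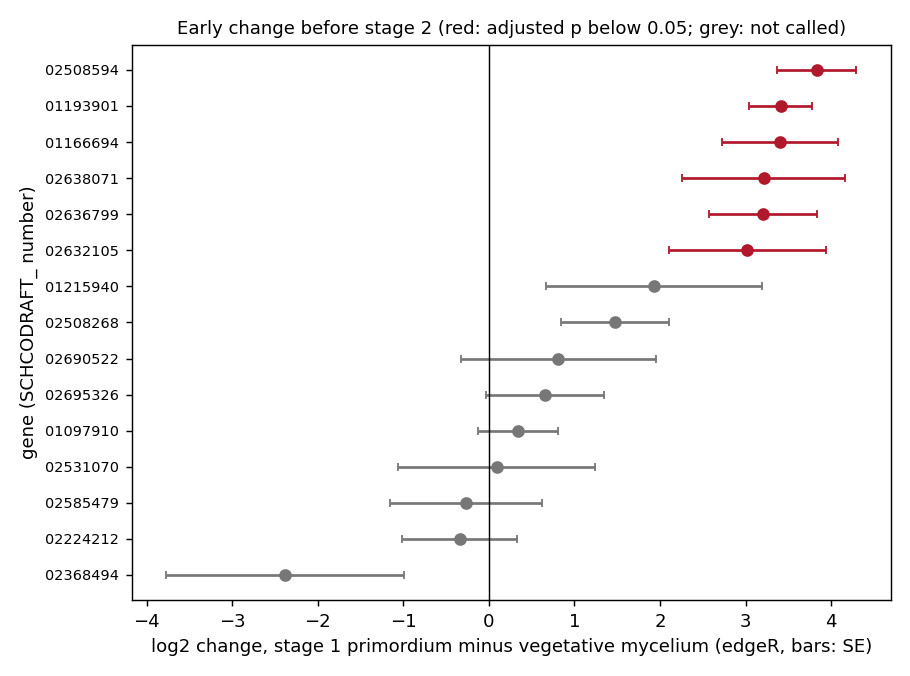
Log2 change from vegetative mycelium to stage 1 primordium (horizontal axis) for 15 of the genes (rows), leaving out SCHCODRAFT_02607221, which had no mycelium reads. Bars are the SE from the edgeR fit, with n = 3 libraries per stage and the spread taken over all 14 libraries. The 6 red points, called at an adjusted p below 0.05, lie between 3.02 and 3.83; the grey ones were not called.

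Membership was sensitive to the thresholds and to single libraries. Just inside the gap of 2 were SCHCODRAFT_02585479 (2.002), SCHCODRAFT_01166694 (2.013), SCHCODRAFT_02690522 (2.06) and SCHCODRAFT_02632105 (2.231), and just outside SCHCODRAFT_02696376 (1.946), SCHCODRAFT_02625702 (1.877), SCHCODRAFT_02508228 (1.858) and SCHCODRAFT_02538080 (1.837). Just inside the span of 1 was SCHCODRAFT_02508268 (0.997) and just outside SCHCODRAFT_02743279 (1.007). A further 204 genes met the floor and the gap but had later means at least 2-fold apart, with the highest mean in the mature fruiting body for 160, in stage 2 primordium for 44 and in young fruiting body for 0. With each of the 14 libraries left out in turn, 0 of the 16 genes stayed members throughout. SCHCODRAFT_01193901 came nearest, in 13 of 14 cases, and SCHCODRAFT_02632105, SCHCODRAFT_02690522, SCHCODRAFT_02607221 and SCHCODRAFT_02585479 stayed in 8.

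The 16 transcripts were 156 to 2038 bases long with a median of 838.5, against 1299 over the authors' table. Their genes did not neighbour each other: in the order of the RefSeq annotation (assembly Schco3), the nearest pair, SCHCODRAFT_02508268 and SCHCODRAFT_02690522, was 49 genes apart. No adjacent gene with values in the authors' table had a gap of 2. The nearest to it were SCHCODRAFT_02497734, next to SCHCODRAFT_02224212, at 1.41, and SCHCODRAFT_02632111, next to SCHCODRAFT_02632105, at 1.25 on the log2 scale.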

How the data were processed

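Per the file headers, the authors deposited raw read counts for 16319 transcript models in each library, as unique gene reads and total gene reads; the file names point to CLC RNA-Seq. For 14681 models the authors deposited a table of log2 RPKM. Checked against the counts, its values equal log2 RPKM from total reads plus a constant per library (SD around it at most 0.001 in well covered models). The constant was highest in stage 2 primordium replicate 2 (0.863) and lowest in mycelium replicate 2 (-0.273). These libraries had the lowest and the highest scaling factor computed here, 0.548 and 1.214. The submitters' processing notes list edgeR 3.4.2, limma 3.18.13 and R 3.0.2 with no role for any; of the aligner, the counting settings and the build, the details were not given in the sources used here. The libraries were unstranded by kit, so reads of antisense partners were not told apart.

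Members were taken from the authors' table. Members, lists and tests were chosen with earlier results of these data known. The test was run in R 4.3.3 on unique reads, with the quasi-likelihood functions of edgeR 4.0.16 (robust fit of stage after TMM and filterByExpr; adjusted p below 0.05), and the code was tested on simulated data. SE is the size of the log2 change over the square root of F. P-values reflect the spread between replicates that the labels call biological. Alternatives were RLE or no scaling factor, no filter, DESeq2 1.42.0, total reads, 2 stages alone, a replicate block and each library left out. IDs from 2000000 up were matched to locus tags by an offset of 287 (14009 of 14254 matched, against 1180 matched by the next best offset). Named in full were all members: those with a symbol (0), of highest level, of largest gap, called, or nearest a threshold. Product keyword and protein pattern lists could not be applied with the annotation used here. Multi-placed reads were 0.59% to 0.89% of a library.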

Additional observations from a re-analysis of the deposited data

How the results depend on the processing

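The number of genes meeting the rule was 16, and 17 with log2 RPKM from unique reads, 16 of them the same. It was 18 and 12 with a floor of 1 and 3, 76 and 3 with a gap of 1 and 3, and 2 and 150 with a span below 0.5 and below 2. With 1 library left out it ran from 7 (without stage 1 primordium replicate 1, stage 2 primordium replicate 3 or young fruiting body replicate 3) to 27 (without young fruiting body replicate 2 or fruiting body replicate 1). It was 25 without stage 1 primordium replicate 3. The cause was not tested. For stage 1 primordium against mycelium, 6286 of 14302 genes were called, 4875 to 6917 with 1 library left out and 8961 with these 2 stages alone. Members called higher numbered 6 (4 to 7 with 1 library left out, 8 by DESeq2). Their median log2 change of 1.70 ran from 0.64 (without stage 1 primordium replicate 3) to 2.20 with 1 library left out, and was 1.17 with a replicate block and 1.27 with no scaling factor. Members called lower numbered 0, except 1 with these 2 stages alone. With no scaling factor the median of all genes moved from 0.02 to -0.30 and the share of calls that were higher from 51.3% to 32.1%, with 6 members higher as before. Between mycelium and stage 1 primordium the replicate numbers gave no pairing (correlations of same-numbered deviations -0.172, 0.082 and -0.08). Pairing among the other stages was not tested. With a replicate block 5967 genes and 6 members were called. No member's called direction reversed in these settings. Low reads limit SCHCODRAFT_02607221 and SCHCODRAFT_02224212 most.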

Other observations

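Among the 220 genes that met the floor and the gap with any span, stage 1 primordium replicate 3 was the highest of its replicates in 201 (91.4%), against 41.2% of the 9722 genes with later means of at least 4 RPKM. Since a high mean in stage 1 primordium removes a gene from this set, the share is a description of these libraries.

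The other 10 genes that, like the 4 members, led by at least 2-fold in stage 2 primordium replicate 3, young fruiting body replicate 3 and fruiting body replicate 1 were no members. SCHCODRAFT_02611161 had the widest lead, at least 3.57 on the log2 scale, with a gap of 0.20 to the earlier stages. SCHCODRAFT_02537556 led by at least 2.54, with a gap of 3.25 and a span of 1.02 that kept it outside the rule. SCHCODRAFT_02008761 led by at least 1.90, with a gap of 2.69 and a span of 1.16. These genes were chosen after their values were seen.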
